A study of Mus musculus with 136 samples.

Results

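The levels of 10 immediate early genes were followed at embryonic day 8.5 in embryos and visceral yolk sacs of NOD (non-obese diabetic) mice: Egr1, Fos, Jun, Junb, Jund, Atf3, Ier2, Ier3, Dusp1 and Btg2. They are 10 of the 47643 genes in the table of molecule counts, taken by their gene symbols, and they were selected on the opposite trends of embryo and yolk sac across stage and maternal condition in these same libraries. Those trends are therefore given as descriptions without a test. All 10 passed the filter on low counts that left 12183 genes to be tested.

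The RNA came from 66 concepti, each giving 1 embryo and 1 yolk sac library, from 10 litters of normal and 12 litters of diabetic dams. All animals were of the NOD strain, in which some females become diabetic spontaneously. The dams' glucose at euthanasia was 105 to 164 mg/dl in the normal group and 423 to 595 mg/dl in the diabetic group, with 1 diabetic dam above the meter's range. Each tissue had 17 libraries from normal and 17 from diabetic pregnancies at 5 to 6 somite pairs, and 16 and 16 at 7 to 9 somite pairs, and the stage of a yolk sac is that of its embryo. In all, 10 litters gave concepti to both stages, and 1 litter (D24M15) gave 7 of the 16 concepti of the diabetic 7-9 group. Concepti of 1 litter share a dam, so the spread between libraries is in part a spread within litters. Library totals ran from 1017901 to 5658850 counts. In every library the RNA of sex-linked genes matched the sex label, but in 2 of the 66 concepti (D28M27C, N28M07E) the embryo and the yolk sac differed in sex, which goes against their being 1 conceptus. Several values are also given without them, and embryo D28M27C is described with Egr1. The summed level of 10 visceral endoderm markers was 4713 to 24077 CPM (counts scaled to library size) in yolk sacs and 41.1 to 1460 CPM in embryos, and that of 7 markers of the embryo proper was 206 to 836 CPM in embryos and 3.49 to 135 CPM in yolk sacs, so the tissue labels held in every library.

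Immediate early genes are transcribed within minutes of a growth factor, stress or mechanical signal, from factors already present in the cell, and their messenger RNAs decay fast. Several of them encode transcription factors: EGR1 is a zinc finger protein, FOS, JUN, JUNB and JUND form the AP-1 dimers, and ATF3 belongs to the related ATF/CREB family. Dusp1 encodes a phosphatase that switches off MAP kinases, Btg2 an antiproliferative factor, and Ier2 and Ier3 encode proteins named for this rapid response.

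The start regions of 8 members were matched by symbol in RefSeq (build GRCm38.p6, the build of the mm10 genome in the submitters' processing notes). Each window holds 300 bases, from 250 before to 50 after the start that RefSeq gives, on the gene's own strand. For Jund the window (chr8:70697489-70697788) ends before the gene span given below. For Atf3 (chr1:191183284-191183583) and Dusp1 (chr17:26508423-26508722) it lies inside that span and away from its start. Egr1 and Ier2 had no matched window and are outside the counts of 8. The windows of 4 members are shown: those of Fos and Jun, whose levels varied closely together in both tissues, and of Dusp1 and Btg2, the 2 members whose window holds the full TGACGTCA element to which CREB and ATF proteins bind. Capitals mark TGACNTCA (which takes in TGACGTCA), TGACG (the first part of TGACGTCA and overlapping it), GCGNGGGCG, an EGR1-type site, and TATAAA, on either strand.
Fos: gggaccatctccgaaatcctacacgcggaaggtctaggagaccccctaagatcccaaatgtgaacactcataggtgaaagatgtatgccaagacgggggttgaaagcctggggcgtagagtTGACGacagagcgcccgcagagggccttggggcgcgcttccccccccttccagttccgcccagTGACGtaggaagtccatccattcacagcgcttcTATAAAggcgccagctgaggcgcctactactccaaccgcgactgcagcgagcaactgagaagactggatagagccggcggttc
Jun: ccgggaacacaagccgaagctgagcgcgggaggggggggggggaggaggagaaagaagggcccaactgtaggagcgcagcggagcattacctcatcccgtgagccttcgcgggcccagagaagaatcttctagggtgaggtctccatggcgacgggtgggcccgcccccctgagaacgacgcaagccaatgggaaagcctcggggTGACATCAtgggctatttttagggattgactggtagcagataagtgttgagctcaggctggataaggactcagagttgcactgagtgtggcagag
Dusp1: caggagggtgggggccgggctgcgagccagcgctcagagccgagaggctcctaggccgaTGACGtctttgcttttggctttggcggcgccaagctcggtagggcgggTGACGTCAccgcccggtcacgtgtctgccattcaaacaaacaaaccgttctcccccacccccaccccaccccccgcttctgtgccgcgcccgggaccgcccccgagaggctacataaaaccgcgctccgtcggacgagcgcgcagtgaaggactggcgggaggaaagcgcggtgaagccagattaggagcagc
Btg2: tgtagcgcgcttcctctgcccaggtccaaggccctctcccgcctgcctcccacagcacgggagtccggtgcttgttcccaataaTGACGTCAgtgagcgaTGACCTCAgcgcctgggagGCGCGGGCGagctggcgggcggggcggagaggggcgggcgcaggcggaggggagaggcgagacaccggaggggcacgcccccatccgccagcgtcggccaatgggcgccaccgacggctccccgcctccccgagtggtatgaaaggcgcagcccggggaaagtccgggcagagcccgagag
These windows are chr12:85473640-85473939 on the plus strand for Fos, chr4:95052173-95052472 on the minus strand for Jun, chr17:26508423-26508722 on the minus strand for Dusp1 and chr1:134079106-134079405 on the minus strand for Btg2. TGACGTCA stood in 2 of the 8 member windows and in 1.79% of 32851 windows of the same length. TGACNTCA stood in 3 of 8 against 8.83%, TGACG in 5 of 8 against 20.8%, GCGNGGGCG in 1 of 8 against 5.55% and TATAAA in 2 of 8 against 13.6%. TGANTCA, the AP-1 site, was in 0 of the 8 and in 7.81% of all windows, and the CArG box of serum response factor was in 0 of the 8 and in 1.63%. A match is a run of letters and not a measured site. Bases outside the windows were not searched, so 0 of the 8 does not show that a gene lacks a site.

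Egr1, which encodes the zinc finger factor EGR1, lies at chr18:34859823-34864984 on the plus strand of GRCm38 (GENCODE annotation, as for the other members). In embryos from normal dams its lowest, median and highest CPM were 3.19, 24.01 and 82.2 at 5-6 somite pairs and 9.66, 17.7 and 119 at 7-9. In embryos from diabetic dams they were 2.06, 5.30 and 210 at 5-6 and 1.68, 6.31 and 17.2 at 7-9. Embryos of diabetic dams thus sat low at both stages: 11 of the 16 at 7-9 lay below all embryos of normal dams, and all 16 lay below their median. The log2 difference of diabetic to normal at 7-9 was -2.21 ± 0.50 (SE), and -2.57 to -1.76 with each litter left out in turn. This SE and those below count littermates as separate, so they are too small where a litter acts as 1 unit. At 5-6, 13 of 17 lay below the normal median and the difference was -0.44 ± 0.44, from -1.43 without litter D28M27 to -0.09 without litter D28M53. In yolk sacs of normal dams the lowest, median and highest CPM were 1.10, 12.97 and 83.2 at 5-6 and 2.40, 18.8 and 79.6 at 7-9. In those of diabetic dams they were 1.85, 7.53 and 36.9 at 5-6 and 12.9, 24.6 and 195 at 7-9. Here the diabetic 7-9 group was the high one, with 12 of 16 above the normal median but only 3 above all normal yolk sacs, and a log2 difference of 0.80 ± 0.45. That difference ran from 0.40 without litter D28M24, whose 1 yolk sac held the 195 CPM, to 1.02 without litter N28M30. The yolk sac difference at 5-6 was -0.62 ± 0.47, and 0.05 without litter N24M21. In bulk tissue, fewer cells that hold a transcript and less of it per cell cannot be told apart.

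**Figure D1:**
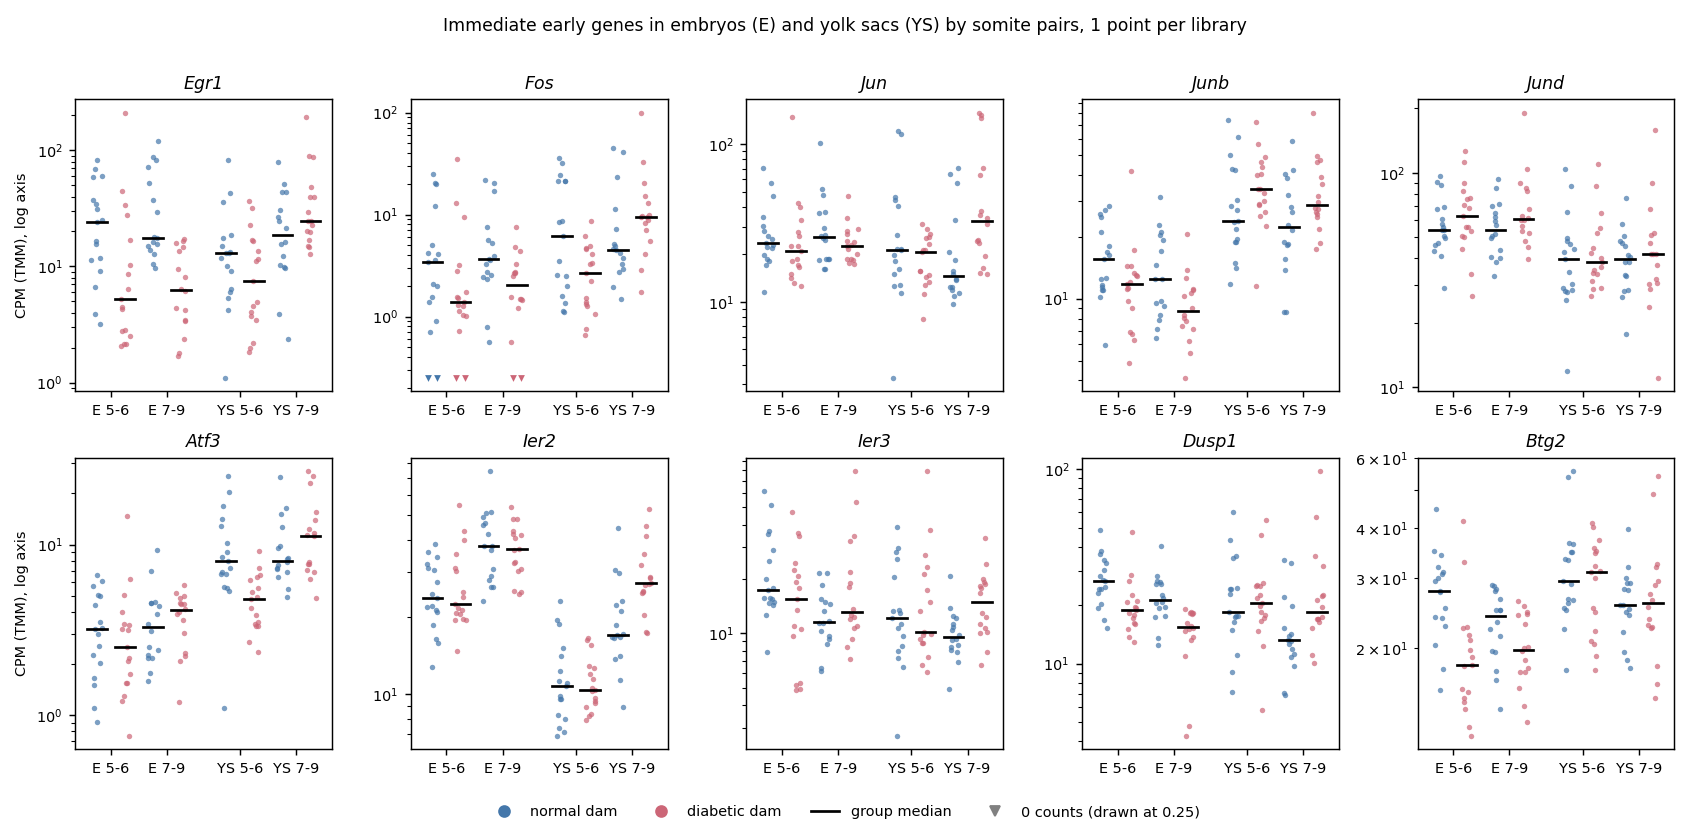
CPM (log axis) of the 10 immediate early genes, 1 point per library, for embryos (E) and yolk sacs (YS) at 5-6 and 7-9 somite pairs, blue for normal and red for diabetic dams, with the group median as a bar. The red embryo points of Egr1 lie low apart from 1 library at 210 CPM, and the red yolk sac points at 7-9 lie high for Egr1, Fos, Jun and Ier2.

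From 5-6 to 7-9 somite pairs under maternal diabetes, Egr1 changed by 1.88 ± 0.46 (log2, SE) in yolk sacs and by -1.40 ± 0.50 in embryos. The embryo value rested on 1 library. Embryo D28M27C, at 5 somite pairs, held 210 CPM of Egr1, and it was the highest of its 17 libraries for 9 of the 10 members, all but Ier3. Its levels were 34.7 CPM for Fos, 148 CPM for Jun, 127 CPM for Jund and 14.6 CPM for Atf3. The yolk sac under the same name held 7.53 CPM of Egr1 and 0.753 CPM of Fos, and it is one of the pairs of differing sex. Without this litter, which is this 1 pair, the embryo change of Egr1 was -0.39, and the group medians with it were 5.30 CPM at 5-6 and 6.31 CPM at 7-9. The yolk sac change stayed between 1.49 and 2.11 over all litters left out in turn, and all 16 yolk sacs at 7-9 lay above the median at 5-6, 6 of them above every one of the 17. By somite number, the median of diabetic yolk sacs was 4.59 CPM at 5 (n = 13), 27.2 at 6 (n = 4), 20.7 at 7 (n = 4), 39.5 at 8 (n = 9) and 22.6 at 9 pairs (n = 3), so the widest gap between neighbouring medians lay between 5 and 6 pairs, inside the earlier stage group. Of the 17 normal concepti at 5-6, 11 had 5 pairs. In embryos of normal dams, the stage change was 0.38 ± 0.43, and in yolk sacs of normal dams it was 0.46 ± 0.46.

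Fos (chr12:85473890-85477273, plus strand), whose protein pairs with JUN proteins, was low in count and followed Egr1. Its lowest, median and highest CPM in embryos of normal dams were 0, 3.41 and 24.8 at 5-6 and 0.558, 3.66 and 21.6 at 7-9. In embryos of diabetic dams they were 0, 1.398 and 34.7 at 5-6 and 0, 2.03 and 7.63 at 7-9. Among the diabetic embryos at 7-9, 13 of 16 were below the normal median, and the log2 difference was -1.34 ± 0.59. In yolk sacs of normal dams they were 1.10, 6.23 and 35.97 at 5-6 and 1.48, 4.51 and 45.04 at 7-9. In yolk sacs of diabetic dams they were 0.664, 2.69 and 8.64 at 5-6 and 1.74, 9.44 and 99.7 at 7-9. Diabetic yolk sacs were thus low at the earlier and high at the later stage: 16 of 17 lay below the normal median at 5-6 (log2 difference -1.89 ± 0.53), and 13 of 16 above it at 7-9 (0.57 ± 0.47). The later difference ran from -0.12 to 0.94 with single litters left out, and its sign was lost without litter D28M36, whose 2 yolk sacs held 20.2 and 99.7 CPM. Over the stages, Fos changed by 2.35 ± 0.52 in diabetic yolk sacs (1.67 to 2.88 with litters left out) and by -0.12 ± 0.47 in normal ones. In diabetic embryos it changed by -0.71 ± 0.61, and by 0.01 without litter D28M27.

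Jun (chr4:95049034-95052222, minus strand) was high in the later diabetic yolk sacs and varied little between the embryo groups. Its lowest, median and highest CPM in yolk sacs were 3.30, 21.3 and 121 in normal and 7.76, 20.8 and 31.3 in diabetic pregnancies at 5-6. At 7-9 they were 9.74, 14.5 and 70.8 in normal and 15.1, 32.5 and 158 in diabetic pregnancies. All 16 diabetic yolk sacs at 7-9 lay above the normal median, and 3 of them, at 146 CPM and above in litters D28M36 and D28M24, above all normal ones. The log2 difference was 1.11 ± 0.32, and 0.73 to 1.36 with litters left out. At 5-6 it was -0.79 ± 0.31, and -0.16 without litter N24M21. The stage change was 1.43 ± 0.31 in diabetic and -0.47 ± 0.32 in normal yolk sacs. In embryos the 4 medians were 20.96 to 25.7 CPM, and the log2 differences of diabetic to normal were 0.02 ± 0.30 at 5-6 and -0.38 ± 0.32 at 7-9. The former was -0.36 without the 2 concepti of differing sex.

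Junb (chr8:84974484-84978718, minus strand) and Jund (chr8:70698949-70700616, plus strand) encode the other JUN proteins. Junb medians in embryos were 15.6 CPM in normal and 11.7 in diabetic pregnancies at 5-6, and 12.5 and 8.66 at 7-9. In yolk sacs they were 23.98 and 34.3 at 5-6 and 22.2 and 28.6 at 7-9, so Junb was lower in embryos and higher in yolk sacs of diabetic dams at both stages. In embryos the log2 differences were -0.39 ± 0.23 at 5-6, -0.59 without the 2 concepti of differing sex, and -0.54 ± 0.25 at 7-9. The yolk sac differences were 0.25 ± 0.21 and 0.42 ± 0.22, and the groups overlapped throughout. Jund moved little with either factor: its 8 changes were between -0.10 and 0.34. Embryo medians of Jund were 54.3 to 62.9 CPM and yolk sac medians 38.2 to 41.8 CPM.

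Atf3 (chr1:191170296-191218039, minus strand), a stress-induced member of the ATF/CREB family, moved in yolk sacs more than in embryos. Its median in yolk sacs was 7.98 CPM in normal and 4.80 in diabetic pregnancies at 5-6 (ranges 1.10 to 25.2 and 2.33 to 9.19), and 16 of the 17 diabetic yolk sacs lay below the normal median. At 7-9 the medians were 8.03 and 11.3 (ranges 4.90 to 24.9 and 4.83 to 27.1). The log2 difference of diabetic to normal was -1.03 ± 0.24 at 5-6 and 0.30 ± 0.24 at 7-9, and the stage change in diabetic yolk sacs was 1.31 ± 0.24. Embryo medians were 2.51 to 4.11 CPM, with differences of -0.04 ± 0.27, or -0.31 without the 2 concepti of differing sex, and 0.06 ± 0.28.

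Ier2 (chr8:84661331-84662852, minus strand) was higher at the later stage in both tissues and both conditions. Its lowest, median and highest CPM in diabetic yolk sacs were 7.90, 10.4 and 16.6 at 5-6 and 17.3, 27.1 and 53.1 at 7-9, and the ranges did not overlap. Over all genes, 17.3% were called higher in that comparison by edgeR's quasi-likelihood test, and nothing is read from this since the members were chosen on it. A call is another measure than ranges that do not overlap, and the share of all genes with such ranges was not computed. In normal yolk sacs they were 6.87, 10.7 and 23.1 at 5-6 and 8.91, 17.1 and 44.6 at 7-9. The stage change was 1.42 ± 0.17 in diabetic and 0.77 ± 0.17 in normal yolk sacs, and 0.46 ± 0.15 and 0.66 ± 0.15 in diabetic and normal embryos. Diabetic and normal pregnancies were close in median at 5-6 in both tissues (22.4 and 23.8 CPM in embryos, 10.4 and 10.7 in yolk sacs), and all 16 diabetic yolk sacs at 7-9 lay above the normal median.

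Ier3 (chr17:35821684-35822923, plus strand), Dusp1 (chr17:26505590-26562128, minus strand) and Btg2 (chr1:134075170-134079120, minus strand) are the remaining members. Ier3 had no opposite signs in the tissues at 7-9: its median in embryos was 17.3 CPM in normal and 15.4 in diabetic pregnancies at 5-6 and 11.5 and 13.04 at 7-9, with a difference of 0.77 ± 0.29 at the later stage. That difference ran from 0.40 without litter D28M36 to 1.26 without litter D24M15. Of the 16 diabetic embryos at 7-9, 5 lay above all normal ones, up to 79.6 CPM. In yolk sacs the difference of Ier3 at 7-9 was 0.62 ± 0.31, so both tissues lay on the same side. Dusp1 was low in diabetic embryos and high in diabetic yolk sacs at 7-9. Its lowest, median and highest CPM in embryos at 7-9 were 12.5, 21.4 and 40.4 in normal and 4.25, 15.4 and 19.1 in diabetic pregnancies, all 16 below the normal median. In yolk sacs at 7-9 they were 6.88, 13.2 and 34.2 in normal and 10.1, 18.4 and 98.2 in diabetic pregnancies, 14 of 16 above the normal median. The log2 differences were -0.59 ± 0.22 and 0.79 ± 0.22. With litters left out they ran from -0.69 to -0.48 in embryos and from 0.50 (without D28M24) to 0.95 in yolk sacs. Btg2 was lower in diabetic embryos at 5-6, with medians of 27.8 and 18.2 CPM, 6 of 17 below all normal embryos and a difference of -0.49 ± 0.13 (-0.59 without the 2 concepti of differing sex). Its other 3 condition differences lay between -0.20 and 0.09.

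**Figure D2:**
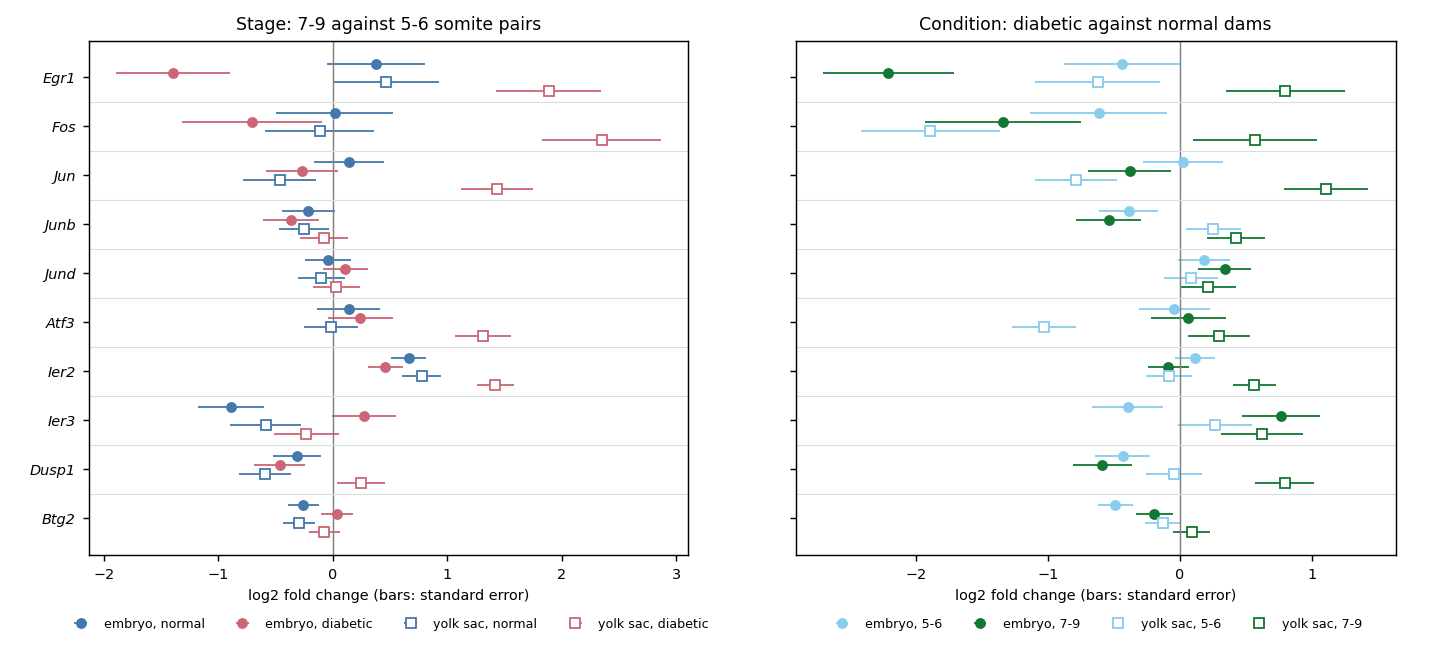
Log2 fold change with its standard error for each gene between stages (left) and between maternal conditions (right), circles for embryos and open squares for yolk sacs. Blue and red mark normal and diabetic dams on the left, and light blue and green mark 5-6 and 7-9 somite pairs on the right. For Egr1, Fos, Jun, Atf3 and Ier2 the diabetic yolk sac square on the left lies right of the other 3 marks, and at 7-9 on the right the green marks of Egr1, Fos, Jun, Junb, Ier2, Dusp1 and Btg2 lie on opposite sides of 0.

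Over the 10 members, the median difference of diabetic to normal at 7-9 was -0.29 in embryos and 0.57 in yolk sacs, beside 0.00 and 0.03 over all 12183 genes. All 10 were above 0 in yolk sacs, where 55.7% of all genes were. At 5-6 the medians were -0.39 and -0.11. The median stage change was 0.78 in diabetic yolk sacs and -0.18 in normal ones. The stage changes of Egr1 in yolk sac and embryo differed by 3.28 ± 0.68 in diabetic and by 0.09 ± 0.63 in normal pregnancies. Without the 2 concepti of differing sex, the former was 2.23 and the latter 0.19. Other measures moved with stage as well: the summed visceral endoderm markers had medians of 9116 and 13963 CPM in diabetic yolk sacs at 5-6 and 7-9, and 9899 and 14198 in normal ones. The 5 trophoblast and decidua markers had medians of 17.1 and 24.6 CPM in diabetic and 7.40 and 12.9 in normal yolk sacs, with single libraries up to 160 and 334 CPM in the diabetic groups, and 1 of the 5 was at 0 in every diabetic yolk sac at 7-9. In normal yolk sacs, 2 of the 5 were at 0 in every library at 5-6 and 2 at 7-9, and in diabetic ones at 5-6 this held for 0. The part of these measures in the changes was not tested.

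Whether the genes differ in level between yolk sac and embryo was tested in the fit over all 8 groups. The members were chosen on trends and not on this level. The normal libraries are 1 side of those trends, however, so the p-values are not wholly independent of the choice. At 5-6 somite pairs in normal pregnancies 2 members were called higher and 3 lower in yolk sacs by edgeR, where 35.4% of all genes were called higher and 37.9% lower. At 7-9 in normal pregnancies the count was again 2 higher and 3 lower, beside 35.5% and 38.4% of all genes. The members' shares lay below those of all genes. Junb and Atf3 were higher in yolk sacs than in embryos at both stages, by 0.89 ± 0.22 and 0.86 ± 0.23 on the log2 scale for Junb (edgeR adjusted p = 0.000126 and 0.000553) and by 1.57 ± 0.25 and 1.42 ± 0.26 for Atf3 (1.35e-08 and 6.61e-07). Atf3 was higher in the yolk sac of 16 of 17 and 16 of 16 normal concepti, and Junb in 16 of 17 and 14 of 16.

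Ier2 was lower in yolk sacs by -1.08 ± 0.17 at 5-6 and -0.97 ± 0.16 at 7-9 (edgeR adjusted p = 3.73e-09 and 4.14e-08), in 16 of 17 and 15 of 16 concepti. Jund was lower by -0.43 ± 0.20 and -0.48 ± 0.21 (adjusted p = 0.0483 and 0.0318). Ier3 was called lower at 5-6 (-0.62 ± 0.28, adjusted p = 0.0382) and had -0.32 ± 0.32 at 7-9, and Dusp1 was called lower at 7-9 (-0.50 ± 0.23, adjusted p = 0.0382) and had -0.22 ± 0.21 at 5-6. The calls of Ier3, Jund and Dusp1 were close to the threshold, and with counts summed per litter, only Jund at 5-6 was called among them. Egr1, Fos, Jun and Btg2 did not pass in normal pregnancies: Fos had 0.90 ± 0.48 and 0.76 ± 0.50, and Egr1 -0.67 ± 0.45 and -0.59 ± 0.45. With the conceptus as a block, which pairs each yolk sac with its embryo, Fos was called higher at 5-6 (0.96, adjusted p = 0.00647) and the counts became 3 higher and 3 lower. Without the 2 concepti of differing sex, 4 members were called at each stage.

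In diabetic pregnancies the same comparison holds the trends by which the members were chosen, so its calls are only listed. At 5-6, 3 members were called higher (34.1% of all genes) and 2 lower (37.8%). At 7-9, 7 were called higher (36.1%) and 1 lower (38.1%). At 5-6, the log2 difference of yolk sac to embryo for Egr1 was -0.86 ± 0.47, and 0.18 without the 2 concepti of differing sex. Its sign thus rested on D28M27C, and Egr1 was higher in the yolk sac of 10 of the 17 concepti. For Fos it was -0.38 ± 0.57, and 0.40 without them. At 7-9, Egr1 had 2.42 ± 0.50 and was higher in the yolk sac of 14 of 16 concepti. Fos had 2.68 ± 0.55 and was higher in 16 of 16.

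For sex, no difference was detected. No member was called between female and male embryos or yolk sacs by edgeR, beside 0.131% and 0.402% of all genes in either direction, and DESeq2 called 0 as well. In embryos the log2 differences of female to male were -0.09 to 0.76 with 1 member at an unadjusted p under 0.05, and in yolk sacs -0.04 to 0.35 with 0 such members.

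The embryo and the yolk sac of a conceptus were then compared after removal of the group means. All 10 members had a positive correlation across the 66 concepti, from 0.17 for Btg2 to 0.55 for Fos. Of all genes tested, 72.4% had a positive one, with a median r of 0.08 and a 95th percentile of 0.30. Fos and Ier3 passed the permutation test over all genes, 2 of 10 members where 0.353% of all genes were called with a positive sign. For Fos, Pearson's r was 0.55 (permutation p = 1e-05, the smallest the 100000 resamples can give, adjusted p = 0.00641) and Spearman's rho 0.54 (permutation, adjusted p = 0.00937). For Ier3, r was 0.50 (permutation p = 4e-05, adjusted p = 0.0162) and rho 0.40 (permutation, adjusted p = 0.172). Without the 2 concepti whose embryos lay farthest from the median, r was 0.62 for Fos and 0.50 for Ier3. Jun (r = 0.39, permutation, adjusted p = 0.0696) and Atf3 (0.40, 0.0889) did not pass. Without the 2 concepti of differing sex, Fos had 0.64, Ier3 0.50 and Jun 0.51, and Jun then passed the permutation test too (adjusted p = 0.0122).

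**Figure D3:**
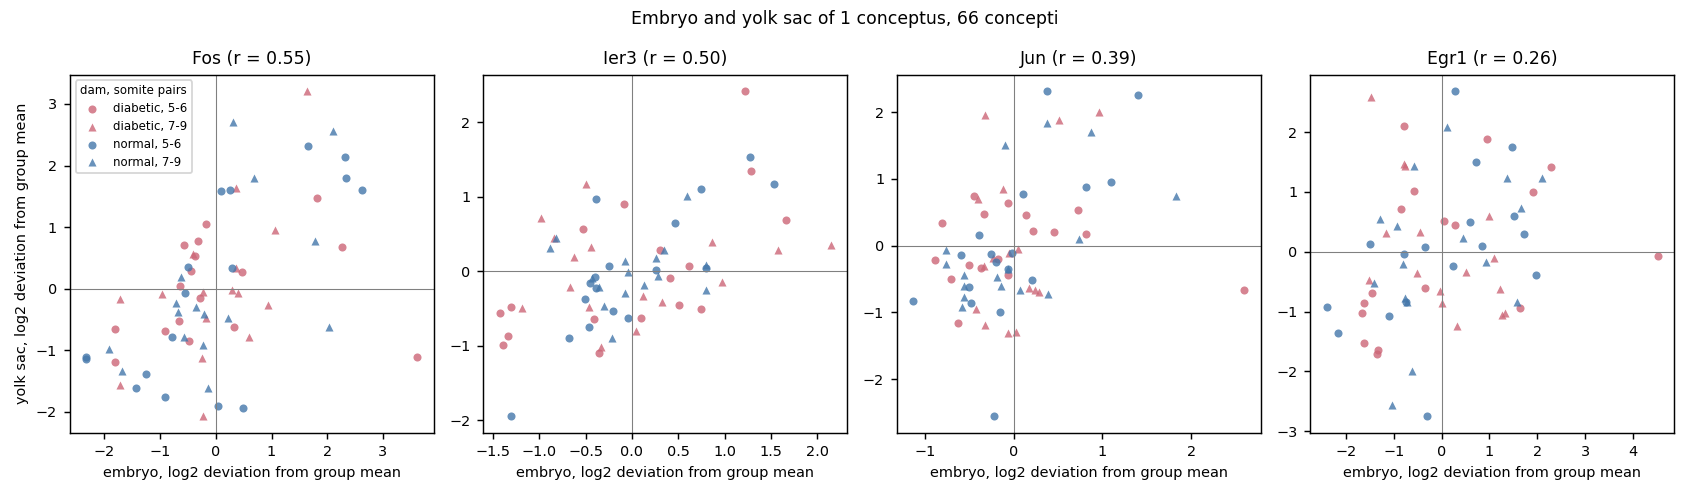
Log2 deviation from the group mean in the yolk sac against that in the embryo for Fos, Ier3, Jun and Egr1, 1 point per conceptus (66), blue for normal and red for diabetic dams, circles for 5-6 and triangles for 7-9 somite pairs. The points of Fos and Ier3 run from lower left to upper right (r = 0.55 and 0.50), and the red circle at the far right for Fos, Jun and Egr1 is the conceptus D28M27C.

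For these 4 members the correlation was largest in normal pregnancies at 5-6, where r was 0.74 for Fos, 0.81 for Ier3, 0.68 for Jun and 0.48 for Egr1 over 17 concepti. In this group, the highest embryo levels of Fos and Jun were those of litters N24M21 and N24M29, which share the first number of their titles. For Fos they were 12.2 to 19.8 and 20.2 to 24.8 CPM (group median 3.41), and r without these litters was not computed. In diabetic pregnancies at 7-9, Egr1 had -0.57 and Fos 0.58 over 16 concepti, and the differences between these groups were not tested. Among the latter, D28M24, the 1 conceptus of its litter, had for Egr1 the lowest litter level in embryos (1.79 CPM) and the highest in yolk sacs (195 CPM). The litter means of embryo and yolk sac had r = 0.54 for Fos and 0.66 for Ier3 over 32 means, and with deviations from the litter means (53 concepti with a littermate of the same stage) no member passed the permutation test: Fos had 0.20 (adjusted p = 0.879) and Ier3 0.25 (adjusted p = 0.865). In that setting 6 of all genes passed, and Jun had -0.17. The permutations treat littermates as separate, so their p-values over concepti are too small where a litter acts as 1 unit. Other genes called over concepti included 4 of the 7 heat shock genes on a list, Hspa1a (r = 0.74), Hsph1 (0.54), Dnajb1 (0.51) and Hspa1b (0.50), of which Hspa1a and Hspa1b are near-identical copies whose reads may be split uncertainly.

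Litters also held most of the spread inside groups. In embryos, litters took 87.7% of the within-group variance of log2 CPM for Egr1, 83.1% for Jun and 83.0% for Fos. Without the 2 concepti of differing sex they were 84.4%, 78.6% and 83.6%, and the median of all genes was 55.3%. The yolk sac shares were 86.9% for Jun, 85.3% for Fos and 71.3% for Egr1. The median over all genes tested was 54.9% in embryos and 50.3% in yolk sacs, and litters take up 45.2% of the degrees of freedom. In embryos Dusp1 (54.0%) and Jund (57.6%) lay near the median of all genes, and in yolk sacs Btg2 (54.4%) did. Single litters topped several members at once: in yolk sacs of the diabetic 7-9 group, the 1 conceptus of D28M24 was highest for 8 of the 10 members by litter mean and D28M36 for the other two, Fos and Jund. In normal yolk sacs at 5-6, litter N24M21 was highest for 5, among them Jun (118 CPM against a median of 19.7 over 10 litters) and Egr1 (62.95 CPM against 11.3).

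**Figure D4:**
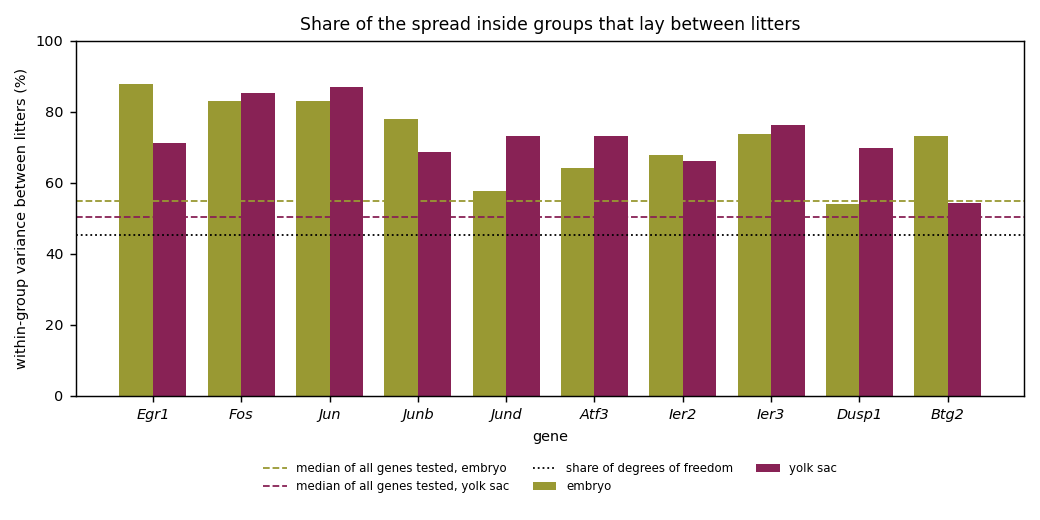
Share of the within-group variance (percent) that lay between litters, per gene, in embryos and yolk sacs. Dashed lines give the median over all genes tested (54.9% and 50.3%) and the dotted line the share of degrees of freedom that litters take up (45.2%), and 9 of 10 bars in embryos and 10 of 10 in yolk sacs stand above the dashed line of their tissue.

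The spread was wide for most members. The biological coefficient of variation, the replicate spread that edgeR estimates beyond counting noise, was 0.996 for Fos, 0.883 for Egr1, 0.593 for Jun and 0.542 for Ier3. It was 0.435 for Atf3, 0.420 for Junb, 0.406 for Dusp1, 0.392 for Jund, 0.289 for Ier2 and 0.242 for Btg2, and 0.221 at the median of all genes. Among the genes nearest in abundance, 99.4% had a lower value than Fos or Egr1, and 63.1% a lower one than Btg2. Technical repeats were compared by log2 ratio, which is not on the scale of that coefficient. The 4 libraries that the labels call batch control duplicates differed from their originals by a median of 0.13 (absolute log2) over 40 gene values. Of these values, 34 lay within 0.5. The widest was Fos in 1 yolk sac pair (N28M06C), on 2 and 7 counts, and Egr1 in the same pair differed by -0.98 on 18 and 10 counts. Egr1 differed by -0.76 in the embryo pair of D24M15G (26 and 15 counts), by -0.38 in that of N28M06C and by 0.13 in the D24M15G yolk sac pair.

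Members varied together from library to library. After removal of group means, the 45 pairs had a median Pearson r of 0.42 in embryos (-0.05 to 0.77) and 0.48 in yolk sacs (0.09 to 0.78), beside 0.00 over pairs of all genes in both. The points share their libraries and litters, so these are descriptions over 66 libraries. Fos with Jun was the highest pair in embryos (0.77) and Jun with Atf3 in yolk sacs (0.78), and Jund with Dusp1 was the lowest in embryos (-0.05). Taking deviations from litter means instead, which was added after the data were seen, the median was 0.21 in embryos and 0.23 in yolk sacs over 53 libraries each. Without the 2 concepti of differing sex it was 0.32 and 0.48.

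**Figure D5:**
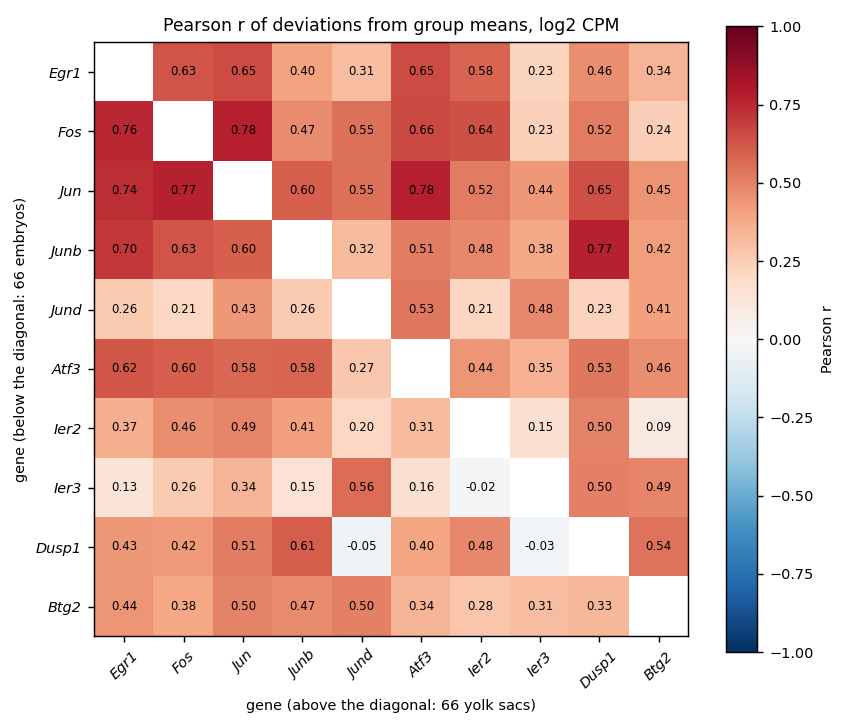
Pearson r of within-group deviations of log2 CPM for each pair of members, below the diagonal over 66 embryos and above it over 66 yolk sacs. Fos, Jun and Egr1 form the darkest block in embryos (0.74 to 0.77), and 3 embryo pairs lie below 0.

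The genes outside the set whose deviations were most like the mean of the members stood on a list of 50 other immediate early genes in 9 of 10 places, all but Ppp1r15a. Fosb, Klf2, Zfp36 and Klf6 hold a place in both tissues. The list was made with earlier results of these data known, so the overlap is not independent of them. In embryos they were Fosb (r = 0.73 over 66 libraries), Klf2 (0.64), Zfp36 (0.63), Klf6 (0.62) and Ppp1r15a (0.58). In yolk sacs they were Zfp36 (0.78), Klf2 (0.74), Rhob (0.71), Klf6 (0.69) and Fosb (0.67). Fosb encodes a further AP-1 subunit, Klf2 and Klf6 zinc finger factors, Zfp36 a protein that promotes messenger RNA decay, and Ppp1r15a a phosphatase regulator of the stress response. Rhob, a small GTPase, had only 0.21 in embryos.

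Of those 50 other immediate early genes, listed with earlier results known, 45 were tested. Between the tissues in normal pregnancies, 25 were called higher and 13 lower in yolk sacs at 5-6, and 21 and 13 at 7-9. Of all genes, 35.4% were called higher and 37.9% lower at 5-6, and 35.5% and 38.4% at 7-9. With the median of the list at 0.58 and 0.41 (log2) and that of all genes at -0.02 and -0.03, the list's median lay toward the yolk sac. Ptgs2, a prostaglandin synthase (3.34 ± 0.42 at 5-6), Cebpb, a leucine zipper factor (2.68 ± 0.18), and Zfp36 (2.31 ± 0.23) had the highest mean differences of the 20 called higher in all 4 tissue comparisons. Egr2, a zinc finger factor that marks hindbrain segments (-5.15 ± 0.40), Trib1, a pseudokinase (-2.49 ± 0.17), and Dusp5, a phosphatase of ERK (-1.97 ± 0.15), had the lowest of the 10 called lower in all 4. For the diabetic to normal difference at 7-9, 33 of the 45 lay below 0 in embryos (median -0.13) and 36 above 0 in yolk sacs (median 0.19), with 0.00 and 0.03 over all genes. Of all genes, 50.4% lay above 0 in embryos and 55.7% in yolk sacs. At 5-6, 26 of the 45 lay above 0 in embryos (median 0.05) and 30 in yolk sacs (median 0.15). The shares of all genes above 0 were 48.4% and 49.1% there. Of 14 upstream regulators (serum response factor and its partners, CREB family members and MAP kinases), 4 were called higher and 6 lower in yolk sacs in each of the 2 normal comparisons, beside the same shares of all genes (35.4% and 37.9% at 5-6, 35.5% and 38.4% at 7-9). For the diabetic to normal difference at 7-9, 11 of these 14 lay below 0 in embryos (median -0.07) and 11 above 0 in yolk sacs (median 0.08). Of all genes, 50.4% lay above 0 in embryos and 55.7% in yolk sacs. At 5-6, 9 of the 14 lay below 0 in embryos (median -0.03) and 8 above 0 in yolk sacs (median 0.01).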

How the data were processed

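The authors sequenced the 3′ ends of messenger RNA (QuantSeq FWD) from embryos and yolk sacs and counted molecules by their identifiers (UMIs). The submitters' processing notes name STAR, HTSeq and mm10, with versions not given in the sources used here. The deposited values are raw counts of molecules per gene for 136 libraries, and every column matched a sample title. A 3′ tag count says nothing of isoforms, so levels are compared between libraries and not between genes.

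Counts were scaled by TMM and fitted with edgeR 4.0.16 (R 4.3.3) in 1 fit over 8 groups of tissue, maternal condition and stage, with filterByExpr at a minimum count of 10, leaving out the 4 duplicates. An adjusted p (Benjamini-Hochberg over 12183 genes) under 0.05 was a call. No p is given for stage or condition changes of the members. The members and gene lists were chosen with earlier results of these data known. Named genes are the 10 members, the 3 most raised and 3 most lowered listed genes in all 4 tissue comparisons, and the 5 most like the member mean in each tissue. Correlation of embryo and yolk sac used log2 CPM (prior count 2), deviations from group means and 100000 two-sided permutations within condition and stage. Embryo and yolk sac share a conceptus name, which pairs them by design, and the median correlation of their deviations over genes was 0.07. Scripts were tested on simulated data. The alternatives were RLE scaling, DESeq2 1.42.0, no filter, blocks by conceptus or litter, litter sums, title number, sex, and each litter left out. Title number is the first number in each sample title, which the labels do not explain. P-values and SEs of the fit over 8 groups measure the spread between these libraries, with littermates counted as separate. Intervals of counting error were not computed.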

Additional observations from a re-analysis of the deposited data

How the results depend on the processing

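Calls between the tissues were limited by litters and by members near the threshold. In normal pregnancies at 5-6, 5 members were called, 3 without the filter on low counts, and 3 to 5 with single litters left out (3 without N28M03, N28M05, N28M06 or N28M07). At 7-9 they were 5, with 3 on counts summed per litter and 3 to 5 with litters left out (3 without N24M29, N28M03, N28M05 or N28M07). In diabetic pregnancies at 5-6 they were 5, and 3 to 6 with litters left out, 3 without D28M23. Of the members that were not called, Jun at normal 5-6 changed sign, from 0.23 to -0.084 with the conceptus as a replicate block and -0.12 with litter as a random block, and ran from -0.23 (without N24M21) to 0.37 with litters left out. The block changed no other call in normal pregnancies than that of Fos. Of the correlations of embryo and yolk sac, 2 were called, 1 by Spearman's rho and 0 with deviations from litter means, where Egr1 had -0.015, Jun -0.17 and Junb -0.076. Litters cannot be told apart from dams, and 1 conceptus stands for a litter in several groups.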
